A study of Mus musculus with 6 samples.

Results

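Nuclear receptors are transcription factors that bind DNA through a shared zinc-finger domain and are switched by small lipophilic ligands such as retinoic acid, thyroid hormone, steroids, oxysterols and fatty acids. Many of them work as pairs in which one partner is a retinoid X receptor (Rxra, Rxrb or Rxrg), whereas the steroid receptors are held by heat-shock protein chaperones until hormone arrives, and a group of orphan receptors has no established natural ligand. In blood formation the family is best known for retinoic acid receptors, which act in stem-cell maintenance and in myeloid maturation. The 45 receptor genes described here were taken by symbol, out of 24063 gene symbols in the count tables, with no threshold on a measured value. They span receptor subfamilies NR0 to NR6.

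The libraries were RNA sequencing profiles of LSK cells, the lineage-negative, Sca-1-positive, c-Kit-positive fraction of bone marrow that holds blood stem cells and early progenitors, and were made to ask how loss of Asxl2, a chromatin regulator, alters transcription in these cells. There were 3 libraries from Asxl2-/- mice and 3 from mice labelled wild type, all on the C57BL/6 strain and all taken after injection of pIpC, a double-stranded RNA that induces interferon. Both groups carried the Mx1-cre transgene, and the knockout group was Mx1-cre Asxl2 fl/fl, with loxP sites around exon 11 of Asxl2. CD45.2+ LSK cells were sorted 4 weeks after pIpC from separate biological replicates. The age of these mice was not given in the sources used here. The Mx1 promoter responds to interferon in many cell types, so recombination was not restricted to LSK cells. The controls are therefore called control throughout, since they too carried Cre and received pIpC.

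Totals ran from 25528540 to 55032075 counts per library, with 16467 to 17327 genes at 1 count or more. The files came in 2 kinds. Asxl2-/- replicates 1 and 3 and control replicate 2 held 1 count per transcript (gene-count files), and Asxl2-/- replicate 2 and control replicates 1 and 3 held 1 count per exon (exon-count files), where reads across a splice junction may enter the sum of a gene several times. Every comparison therefore had the kind of file as a covariate. Exon 11 took 0.583% of the Asxl2 exon counts in Asxl2-/- replicate 2, with a 95% Wilson interval of 0.404% to 0.841%, against 10.3% and 12.0% in control replicates 1 and 3. Xist had 49540 to 66689 counts in the Asxl2-/- libraries and 590 to 3194 in the controls, and 4 Y-linked genes had 0 to 2 counts and 1026 to 4807 counts, so that genotype and sex cannot be told apart in any comparison below. Levels are given as CPM, counts scaled to a library of 1000000. Kit, the sort marker c-Kit, stood at 280 to 431 CPM over the 6 libraries. Ly6a, which encodes Sca-1, stood at 52.6 to 69.1 CPM in the Asxl2-/- libraries and at 40.5, 260 and 148 in control replicates 1, 2 and 3.

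LSK cells of control mice expressed 26 of the 45 receptors, taking at least 10 counts in each of the 3 control libraries as expressed. By subfamily these were 13 of 18 in NR1 (thyroid hormone, retinoic acid, PPAR, REV-ERB, ROR, LXR and vitamin D receptors), 6 of 11 in NR2 (RXR, HNF4, testicular and COUP-TF receptors), 3 of 8 in NR3 (steroid and oestrogen-related receptors), 2 of 3 in NR4, 0 of 2 in NR5, 1 of 1 in NR6 and 1 of 2 in NR0. Another 10 receptors were at or below 3 counts in each control library. These were the bile acid receptor Nr1h4, the xenobiotic receptor Nr1i2, Nr2e1 and Nr2e3 of the nervous system and retina, the oestrogen receptor Esr2, the oestrogen-related receptors Esrrb and Esrrg, the steroidogenic and liver receptors Nr5a1 and Nr5a2, and Nr0b1. Nr2e1, Nr2e3 and Nr0b1 had 0 counts in all 6 libraries, which allows up to 3 counts in each. The remaining 9, Ppara, Pparg, Rorb, Rxrg, Nr2f1, Nr2f2, Nr3c2, Pgr and Nr4a3, lay between these limits in control cells.

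Levels between receptors were compared as CPM per kilobase of transcript, a scale that accounts for length, and ordered by the median of the 3 control libraries. The highest was Nr1h2, which encodes the oxysterol receptor LXRβ, at 45.7. It was followed by Rxrb, a partner of LXR and of many other receptors, at 42.9 and by the thyroid hormone receptor Thra at 29.8. Then came the oestrogen-related receptor Esrra at 14.7, the glucocorticoid receptor Nr3c1 at 14.4, the testicular orphan receptor Nr2c2 at 13.0, the immediate early receptor Nr4a1 at 7.67, the testicular orphan receptor Nr2c1 at 5.08, the clock repressor Nr1d1 at 4.35 and the fatty-acid receptor Ppard at 4.25. The median over all 14145 genes tested was 9.02 on the same scale, and Nr1h2 stood above 84.2% of those genes. Rarg, at 1.59, stood above 24.9% of them and Rxra, at 1.35, above 23.2%. Of 25 neighbouring pairs in the order of the 26 expressed receptors, only 5 did not overlap between control libraries, namely Rxrb over Thra, Thra over Esrra, Nr1d2 over Rara, Nr1h3 over Nr6a1 and Nr6a1 over Rarb. The same 10 receptors formed the top 10 in the gene-count control library alone and in the exon-count control libraries alone.

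**Figure D1:**
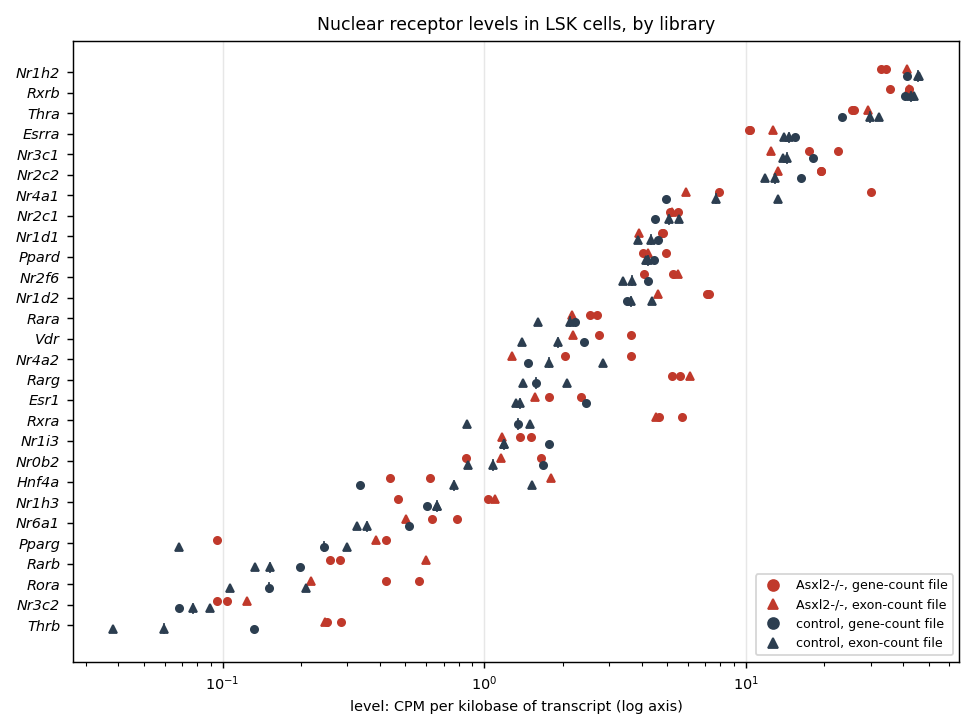
Level of each of the 28 tested nuclear receptors in each library, as CPM per kilobase of transcript on a log axis, with red symbols for Asxl2-/- and dark symbols for control libraries, circles for gene-count and triangles for exon-count files, and a short vertical line at the control median. Receptors are ordered by that median, from Nr1h2 at 45.7 to Thrb at 0.0599, and all 3 red symbols of Rarg and of Rxra lie to the right of their 3 dark ones.

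Within several receptor groups 1 paralog carried nearly all of the transcript. Thra made up 98.9% to 99.9% of the thyroid hormone receptor level over the 6 libraries, Esrra 99.8% or more of the oestrogen-related receptor level, and Nr1h2 97.1% to 98.6% of the LXR level. Ppard made up 91.7% to 98.4% of the PPAR level. The clock receptors Nr1d1 and Nr1d2 were more even, with Nr1d2 at 43.2% to 50.3% of their summed level in control cells. So were the retinoic acid receptors, where Rara made up 48.8% to 55.5% and Rarg 39.5% to 47.7% of the summed level in controls.

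The fit across all genes called 331 of 14145 genes tested, or 2.34%, at an adjusted p below 0.05, with 2.04% raised and 0.304% lowered in Asxl2-/- cells. In these pooled cells, a change in the number of cells of a type cannot be told apart from a change in RNA per cell. Of the 45 receptors, 28 passed the filter on low counts and were tested, and the 17 that did not had at most 15 counts in any library. The test called 2 of the 28, Rxra and Rarg, both raised, which is 7.14% of those tested. At an unadjusted p below 0.05, 6 receptors were higher and 2 lower in Asxl2-/- cells, beside 27.7% of all genes tested. The median log2 fold change was 0.31 over the 28 receptors and 0.00052 over all genes tested. A receptor expressed only in the knockout could enter the 28 through its level there, so these counts do not describe all 45. There were 13 receptors with an absolute log2 fold change below 0.25.

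**Figure D2:**
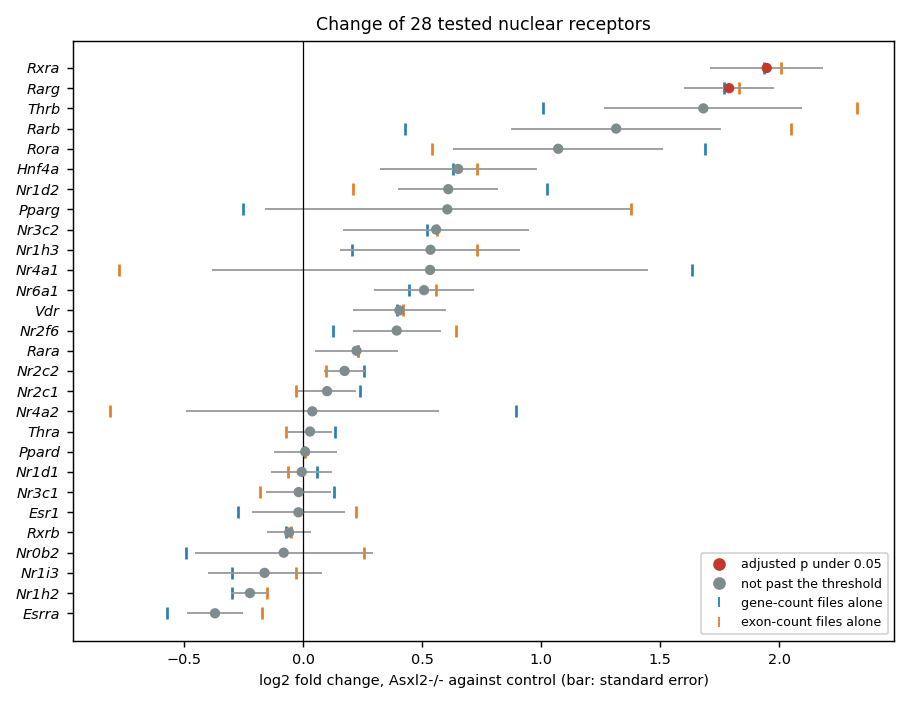
Log2 fold change of Asxl2-/- against control for the 28 tested receptors, with the standard error as a bar, and the value within gene-count files alone (blue) and exon-count files alone (orange) as ticks. Rxra at 1.95 and Rarg at 1.79 are the points past the threshold, in red, and their ticks lie close to the fitted value, whereas those of Nr4a1 lie at 1.64 and -0.77.

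Rxra encodes RXRα, a partner of retinoic acid, vitamin D, LXR and PPAR receptors, and lies on chromosome 2. Rarg encodes the retinoic acid receptor RARγ, which in mice has a known role in the maintenance of blood stem cells, and lies on chromosome 15. The 250 bases before 4 of their annotated starts are shown because these are the receptors that the test called and because the exon counts bear on which start was used. They were read from RefSeq on GRCm38.p6, the mm10 build of the count tables, and are written 5′ to 3′ on the strand of the gene. The Rxra windows are chr2:27676951-27677200 and chr2:27709042-27709291 on the plus strand, the latter inside the first intron of NM_011305. The Rarg windows are chr15:102257523-102257772 and chr15:102246501-102246750 on the minus strand, the latter inside the third intron of NM_011244. Capitals mark matches, on either strand and with overlap allowed, to AGGTCA (reverse TGACCT), a half-site that many but not all nuclear receptors bind. They also mark matches to TGTGGT (reverse ACCACA), the core that Runx factors bind, and to GGGCGG (reverse CCGCCC), the GC box.
Rxra, start of NM_011305: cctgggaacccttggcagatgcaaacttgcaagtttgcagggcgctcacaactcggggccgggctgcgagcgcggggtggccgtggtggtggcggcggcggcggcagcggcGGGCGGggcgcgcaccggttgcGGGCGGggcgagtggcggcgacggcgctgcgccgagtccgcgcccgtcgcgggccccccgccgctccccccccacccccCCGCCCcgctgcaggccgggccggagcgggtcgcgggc
Rxra, start of NM_001290481: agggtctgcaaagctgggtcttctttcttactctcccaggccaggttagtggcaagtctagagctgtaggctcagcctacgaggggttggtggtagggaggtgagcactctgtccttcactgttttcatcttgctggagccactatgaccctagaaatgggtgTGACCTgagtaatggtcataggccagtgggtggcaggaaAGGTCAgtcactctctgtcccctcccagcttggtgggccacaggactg
Rarg, start of NM_011244: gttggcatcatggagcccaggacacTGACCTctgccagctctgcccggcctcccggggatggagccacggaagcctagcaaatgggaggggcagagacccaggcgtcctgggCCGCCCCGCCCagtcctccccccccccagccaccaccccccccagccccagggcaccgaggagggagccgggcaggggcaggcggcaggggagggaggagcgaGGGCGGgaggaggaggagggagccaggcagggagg
Rarg, start of NM_001042727: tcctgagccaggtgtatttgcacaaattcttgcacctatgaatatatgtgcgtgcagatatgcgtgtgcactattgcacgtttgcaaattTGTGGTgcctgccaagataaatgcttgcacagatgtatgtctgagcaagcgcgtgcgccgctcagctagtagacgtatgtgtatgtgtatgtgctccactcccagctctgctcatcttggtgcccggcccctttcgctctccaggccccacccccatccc
The window of NM_011305 held 3 GC boxes and neither of the other motifs, at 81.2% G and C, and that of NM_001290481 held 2 receptor half-sites. For Rarg, the window of NM_011244 held 1 receptor half-site and 3 GC boxes, of which 2 overlap, and the window of NM_001042727 held 1 Runx core. Of 32851 windows of the same length over all genes, 14.0% held a receptor half-site, 14.0% a Runx core and 32.7% a GC box. Among 63 windows of the 42 receptors that had one, 11 (17.5%), 6 (9.52%) and 28 (44.4%) did. A match is a description of these letters and not a binding site.

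Rxra stood at 30.1, 24.0 and 24.5 CPM in Asxl2-/- replicates 1, 2 and 3 and at 7.87, 7.09 and 4.51 in control replicates 1, 2 and 3. These values came from 696 to 1276 counts in the knockout and 204 to 410 in the control libraries. All 3 Asxl2-/- libraries lay above all 3 control libraries. Expressed as log2 CPM with the effect of the file kind removed, Asxl2-/- cells averaged 4.67 ± 0.15 (SD, n = 3) against 2.70 ± 0.40 (SD, n = 3) for controls. Rxra rose 3.86-fold, a log2 fold change of 1.95 with a standard error of 0.24 and an adjusted p of 0.0234 by edgeR's quasi-likelihood test with Benjamini-Hochberg (BH) adjustment. Taken by kind of file, the log2 fold change was 1.94 from gene counts and 2.01 from exon counts, where 1 group is a single library and no test applies.

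Rarg stood at 16.6, 18.1 and 15.5 CPM in the Asxl2-/- libraries and at 6.14, 4.69 and 4.18 in the controls, from 440 to 961 and from 135 to 320 counts. The groups again did not overlap. The mean log2 CPM was 4.08 ± 0.051 (SD, n = 3) in Asxl2-/- cells against 2.28 ± 0.28 (SD, n = 3). Rarg rose 3.46-fold, a log2 fold change of 1.79 with a standard error of 0.19 and an adjusted p of 0.0178 by edgeR's quasi-likelihood test. Values within gene-count and exon-count files were 1.77 and 1.83.

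Whether each of the 2 genes passed the threshold depended on single libraries. Without Asxl2-/- replicate 1, Asxl2-/- replicate 3 or control replicate 3 neither receptor passed, with edgeR BH-adjusted p from 0.0547 to 0.0995 for Rarg and from 0.0587 to 0.0995 for Rxra, and without control replicate 2 Rxra was at 0.0603. The log2 fold changes stayed between 1.68 and 1.92 for Rarg and between 1.79 and 2.14 for Rxra over all 16 fits. Over all genes, the 331 calls became 16, 96 and 9 without Asxl2-/- replicate 1, Asxl2-/- replicate 3 and control replicate 3.

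The shares of the paralogs moved with these 2 genes. Rarg made up 65.2% to 68.8% of the summed retinoic acid receptor level in Asxl2-/- cells against 39.5% to 47.7% in controls, and the sum itself was 8.04 to 8.87 against 3.15 to 4.35 CPM per kilobase. Rara, the main retinoic acid receptor of myeloid cells, was at 9.12, 7.33 and 8.60 CPM in Asxl2-/- and 7.20, 7.54 and 5.42 in control replicates 1, 2 and 3. The Rara groups overlapped, with a log2 fold change of 0.22 (SE 0.18, edgeR BH-adjusted p 0.435). Rarb, the least abundant of the 3, was at 0.887, 1.90 and 0.811 against 0.480, 0.625 and 0.422 CPM. Its groups did not overlap, but the log2 fold change of 1.32 (SE 0.44) did not pass, at an edgeR BH-adjusted p of 0.131, and it was 0.43 in gene-count and 2.05 in exon-count files.

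Among the retinoid X receptors, Rxra made up 9.78% to 11.9% of the summed level in Asxl2-/- cells and 1.96% to 3.27% in controls. Rxrb made up 87.8% to 90.2% and 96.5% to 97.9%. The sum was 40.4 to 47.9 against 42.1 to 45.7 CPM per kilobase, so the ranges of the groups overlapped although Rxra differed. Rxrb was at 111, 110 and 94.1 CPM in Asxl2-/- and 116, 107 and 113 in control libraries, with a log2 fold change of -0.06 (SE 0.092, edgeR BH-adjusted p 0.713) that turned positive, at 0.039, when libraries were scaled by size alone. Rxrg had at most 14 counts in any library and was not tested.

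**Figure D3:**
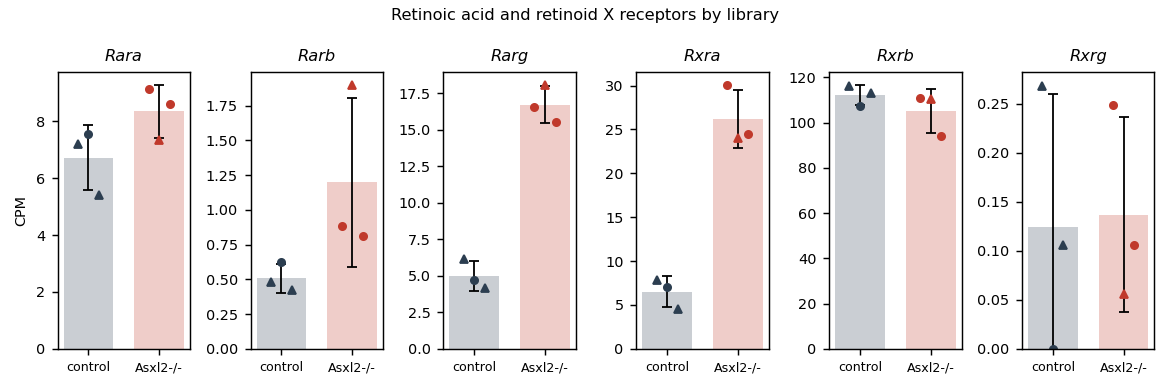
CPM of the 3 retinoic acid receptors and the 3 retinoid X receptors in each library, by group, with bars at the group mean from 0, whiskers of 1 SD (n = 3), circles for gene-count and triangles for exon-count files. Asxl2-/- libraries lie above all controls for Rarb, Rarg and Rxra and overlap them for Rara, Rxrb and Rxrg; each panel has its own scale.

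The exon-count files gave the position of the added counts. In Rxra, Asxl2-/- replicate 2 lay above both control libraries in 10 of 10 exons, at 2.71 to 5.34 times their mean. In Rarg it did so in 10 of 10 exons of NM_011244, at 2.45 to 5.84 times. The first 3 Rarg exons held few counts, 4 to 19 in Asxl2-/- replicate 2 and 1 to 5 in the controls, and the ratio of 2.45 is from exon 2. With 1 knockout library in these files, this compares libraries and not genotypes. The first exon of Rxra transcript NM_011305 held 17, 5 and 2 counts in Asxl2-/- replicate 2 and control replicates 1 and 3, and the first exons of NM_001290481 and NM_001290482 held 0 in each, which allows up to 3 counts in each. Counts on a first exon of Rxra were thus all on the exon that follows the GC-rich window.

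Rarg has 2 annotated starts. The first exon of NM_001042727 held 53 of 84 counts that fell on exons belonging to 1 transcript alone in Asxl2-/- replicate 2, which is 63.1% (95% Wilson interval 52.4% to 72.6%). It held 27 of 34, or 79.4% (63.2% to 89.7%), in control replicate 1 and 19 of 27, or 70.4% (51.5% to 84.1%), in control replicate 3. The intervals overlap, which is not a test, and with 1 Asxl2-/- library a difference in start use between genotypes could not be tested. Per exon base the shares were 72.5%, 85.6% and 78.5%. Intervals cover counting error only, since amplified reads without molecular identifiers are not independent molecules.

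**Figure D4:**
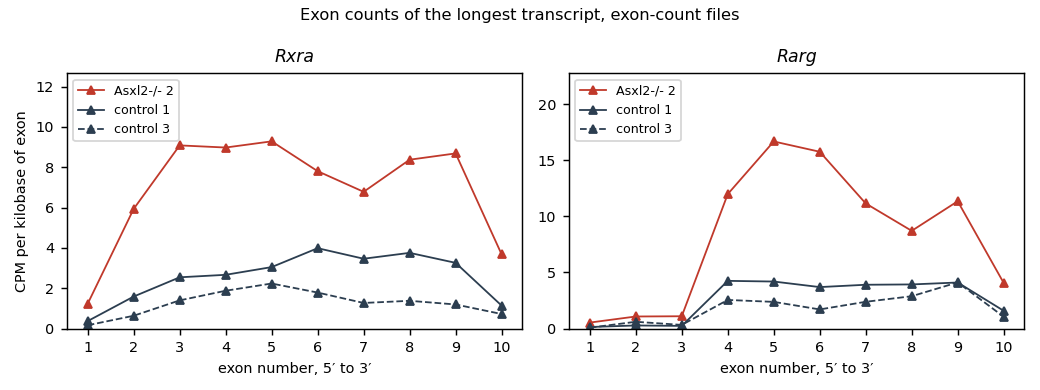
CPM per kilobase of exon by exon number, 5′ to 3′, for Rxra (NM_011305) and Rarg (NM_011244) in the 3 exon-count libraries, with Asxl2-/- replicate 2 in red, control replicate 1 in dark solid and control replicate 3 in dark dashed lines. The red line lies above both controls at all 10 exons of each gene, and the first 3 exons of Rarg are low in every library.

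Markers of other cell types also differed between the groups. Of 12 B-lymphoid markers, 9 were called raised and 0 lowered, with a summed level of 216 to 259 CPM in Asxl2-/- and 51.0 to 77.3 in control libraries. Of 11 tested megakaryocyte markers 5 were called raised, and 9 were higher and 0 lower at that unadjusted level. Their summed levels were 366 to 909 against 193 to 403. Of 11 tested neutrophil and monocyte markers Ltf and Ngp were called raised, and 6 were higher and 0 lower at that unadjusted level. Their summed levels overlapped, at 2585 to 6749 against 2630 to 7884, of which Mpo alone held 1749 to 4732 against 1850 to 5506. None of 12 erythroid markers was called, but 7 were lower and 0 higher at that unadjusted level, and their sum was 839 to 1618 against 2262 to 3491. Of 12 stromal markers, Nes was called raised, and 1 was higher and 0 lower at that unadjusted level, with summed levels of 192 to 408 against 107 to 256. No marker was called among 10 tested for T and NK cells (150 to 226 against 184 to 211), 10 for macrophages (34.4 to 76.1 against 39.5 to 124) and 12 for endothelium (283 to 352 against 246 to 307). At that unadjusted level, 0 were higher and 2 lower for T and NK cells, 0 and 1 for macrophages, and 5 and 0 for endothelium. No marker of these lists was at 0 in all libraries, and the megakaryocyte gene Gp6 was at or below 3 counts in each. Their part in the receptor results was not tested.

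Other heterodimer partners showed smaller or more variable differences. Thrb, the thyroid hormone receptor that is minor in LSK cells, was at 1.53, 1.50 and 1.73 CPM in Asxl2-/- libraries and 0.365, 0.799 and 0.232 in controls, from 43 to 80 and from 11 to 23 counts. The groups did not overlap. Its log2 fold change of 1.68 (SE 0.42) had an edgeR BH-adjusted p of 0.0820 and was past the threshold with DESeq2. It was 1.01 from gene counts and 2.33 from exon counts. With the file-kind covariate, leaving out Asxl2-/- replicate 2 rests the comparison on gene-count files and leaving out control replicate 2 on exon-count files. Those fits therefore nearly repeat the 2 values, at 1.02 and 2.32, and are not separate checks. Thra, at 57.3, 66.1 and 58.1 CPM against 66.8, 52.6 and 72.4, overlapped between groups, with a log2 fold change of 0.03 (SE 0.091) whose sign depended on scaling.

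Nr1h2, the most abundant LXR in every library, was at 69.7, 83.5 and 66.2 CPM in Asxl2-/- and 92.3, 83.6 and 93.0 in control libraries. The groups did not overlap, by a narrow margin, and the log2 fold change of -0.22 (SE 0.080) had an edgeR BH-adjusted p of 0.144. Its paralog Nr1h3 was at 2.02, 2.14 and 0.917 against 1.29, 1.18 and 1.29 CPM. Those groups overlapped, with a log2 fold change of 0.54 (SE 0.38, edgeR BH-adjusted p 0.388). Vdr, the vitamin D receptor, was at 15.8, 9.49 and 11.9 against 8.31, 10.5 and 6.05, with a log2 fold change of 0.40 (SE 0.20, edgeR BH-adjusted p 0.233). Ppard stood at 13.0 to 15.9 CPM in Asxl2-/- and 13.4 to 14.4 in control libraries, a log2 fold change of 0.01 (SE 0.13). Pparg, the adipocyte receptor, had 5 to 38 counts per library and a log2 fold change of 0.61 with a standard error of 0.77. That value was -0.25 from gene counts and 1.38 from exon counts. Ppara had at most 6 counts in any library.

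Clock-linked receptors bind the same elements with opposite effect, Nr1d1 and Nr1d2 as repressors and Rora as an activator. Nr1d2 was at 33.6, 21.5 and 32.9 CPM in Asxl2-/- and 20.4, 16.3 and 16.9 in control libraries, without overlap. Its log2 fold change was 0.61 (SE 0.21, edgeR BH-adjusted p 0.135), made up of 1.03 from gene counts and 0.21 from exon counts. With Asxl2-/- replicate 2 left out, the fit repeats the gene-count value, at 1.03. It then rests on control replicate 2 as the only gene-count control. Nr1d1 was at 10.8 to 13.3 against 10.7 to 12.7 CPM, a log2 fold change of -0.0059. Rora was at 6.14, 2.37 and 4.58 against 2.26, 1.63 and 1.16 CPM, without overlap, and its log2 fold change of 1.07 (SE 0.44) had an edgeR BH-adjusted p of 0.180. The Rora value was 1.69 from gene counts and 0.54 from exon counts. The fits without Asxl2-/- replicate 2 and without control replicate 2 nearly repeat these, at 1.71 and 0.46. Rorb had at most 14 counts in any library.

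Steroid receptors were led by the glucocorticoid receptor. Nr3c1 was at 110, 79.1 and 142 CPM in Asxl2-/- and 91.1, 114 and 88.1 in control libraries, which overlapped, with a log2 fold change of -0.02 (SE 0.14) whose sign depended on scaling and on the file-kind covariate. Esr1, the oestrogen receptor α, was at 10.1, 6.78 and 7.61 against 5.93, 10.6 and 5.72, with a log2 fold change of -0.02 (SE 0.19). The mineralocorticoid receptor Nr3c2 had 8 to 27 counts per library and a log2 fold change of 0.56 (SE 0.39), with groups that did not overlap. The progesterone receptor Pgr had at most 5 counts in any library. Esrra, which drives mitochondrial genes and binds no steroid, was at 23.0, 28.6 and 23.3 CPM in Asxl2-/- and 31.5, 34.5 and 32.9 in control libraries. The groups did not overlap, and the log2 fold change of -0.37 (SE 0.12) had an edgeR BH-adjusted p of 0.121 and passed with DESeq2. It was -0.57 from gene counts and -0.17 from exon counts. The fits without Asxl2-/- replicate 2 and without control replicate 2 repeat these, at -0.57 and -0.17. In the transcript of Esrra, 2.23% of bases are shared with the neighbouring gene Trmt112.

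The tested receptors whose Asxl2-/- and control libraries did not overlap were thus 7 higher in the knockout (Rxra, Rarg, Thrb, Rarb, Rora, Nr1d2 and Nr3c2) and 2 lower (Nr1h2 and Esrra), of 28. Over all genes tested 15.4% did not overlap with the knockout higher and 9.36% with it lower. The sign of the fold change differed between the 2 kinds of file for 9 of the 28.

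Orphan receptors of the NR2 subfamily varied little. Nr2c2 was at 148, 101 and 148 CPM in Asxl2-/- and 98.8, 124 and 90.6 in control libraries, with exon-count files lower in both groups, and its log2 fold change was 0.17 (SE 0.085, edgeR BH-adjusted p 0.234). Of its bases, 46.4% are shared with Mrps25 in its last exon, and with unstranded reads the genes cannot be told apart there. In the exon-count files the log2 difference was 0.095 with that exon and 0.020 without it. Nr2c1 was at 21.0, 19.9 and 19.6 against 21.3, 17.2 and 19.4 CPM, a log2 fold change of 0.10 (SE 0.12). Nr2f6, which restrains cytokine genes in lymphocytes, was at 11.7, 12.3 and 9.02 against 8.17, 9.41 and 7.55, a log2 fold change of 0.39 (SE 0.19, edgeR BH-adjusted p 0.223). Its relatives Nr2f1 and Nr2f2 had at most 15 and 5 counts in any library.

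For Hnf4a, a liver and gut regulator, every exon-count library lay above every gene-count library. Exon-count files gave 7.84 CPM in Asxl2-/- replicate 2 and 6.64 and 3.35 in control replicates 1 and 3, whereas gene-count files gave 2.70 and 1.90 in Asxl2-/- replicates 1 and 3 and 1.46 in control replicate 2. The log2 fold change was 0.65 (SE 0.33, edgeR BH-adjusted p 0.248). Nr1i3, a xenobiotic receptor, was at 1.65 to 2.13 against 1.69 to 2.50 CPM, and 18.2% of its bases are shared with Tomm40l. Nr6a1, the germ cell nuclear factor, was at 3.90, 3.12 and 4.87 against 2.21, 3.20 and 2.02, which overlapped by a narrow margin, with a log2 fold change of 0.51 (SE 0.21, edgeR BH-adjusted p 0.184). Nr0b2, which lacks a DNA-binding domain, was at 0.952 to 1.85 against 0.970 to 1.88 CPM.

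NR4A receptors are immediate early genes, induced within minutes of many stimuli, and act without a classical ligand. Nr4a1 was at 19.5, 14.6 and 74.6 CPM in Asxl2-/- replicates 1, 2 and 3 and at 32.9, 12.3 and 19.0 in control replicates 1, 2 and 3. Asxl2-/- replicate 3 was the highest of the 6 and the groups overlapped. The log2 fold change was 0.53 with a standard error of 0.92, the largest error of the tested receptors named here, and turned to -0.21 without Asxl2-/- replicate 3 and to -0.83 without control replicate 2. Nr4a2 was at 6.46, 4.06 and 11.6 against 9.06, 4.65 and 5.61 CPM, again highest in Asxl2-/- replicate 3. Its log2 fold change was 0.04 with a standard error of 0.53. Nr4a3 had 4 to 14 counts per library.

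The same library stood apart for other immediate early genes. The summed level of 16 of them was 3065 CPM in Asxl2-/- replicate 3 and 864 to 1272 in the other 5 libraries. Fos was at 803 CPM there and at 227 to 371 elsewhere, Fosb at 548 and 91.2 to 130, and Egr1 at 176 and 29.3 to 60.2. These genes, Klf6 and Atf3 were picked after their values were seen. Of the 16, Fosl1 and Fosl2 were highest in Asxl2-/- replicate 1, and Egr2, Egr3 and Klf4 in control replicate 2. None of the 16 was called by edgeR, and 1, Klf4, was at an unadjusted p below 0.05, at 8.73, 5.37 and 16.7 CPM in Asxl2-/- against 8.33, 24.9 and 7.17 in control libraries. The part of this library's state in the NR4A values was not tested.

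**Figure D5:**
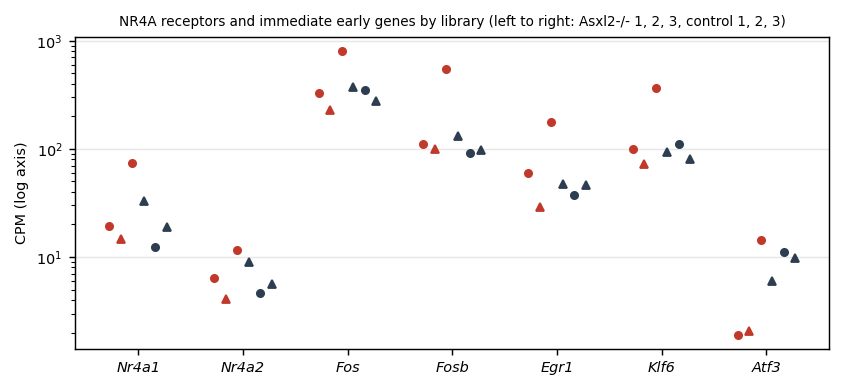
CPM on a log axis of Nr4a1, Nr4a2 and 5 other immediate early genes in each library, in the order Asxl2-/- 1, 2, 3 (red) and control 1, 2, 3 (dark), with circles for gene-count and triangles for exon-count files. Asxl2-/- replicate 3 is the highest of the 6 libraries for all 7 genes, at 74.6 for Nr4a1 and 803 for Fos. The 5 other genes were picked after their values were seen.

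The genes around the receptors were followed in 8 lists, which hold 110 distinct tested genes. The test called 2 of the 110, or 1.82%, beside 2.34% of all genes. At an unadjusted p below 0.05, 27.7% of all genes tested differed, with 2126 of 14145 higher and 1786 (12.6%) lower in Asxl2-/- cells, which is the background for the unadjusted counts of each list. Apoe, a cholesterol carrier and LXR target, was at 245, 355 and 279 CPM in Asxl2-/- and 213, 90.3 and 136 in control libraries, without overlap. Apoe was raised by 1.28 in log2 units (SE 0.22, edgeR BH-adjusted p 0.0461), and fell out of the calls in 8 of 16 fits, with adjusted p of up to 0.164. Zbtb16, a progenitor transcription factor that glucocorticoids induce, was at 6.49, 6.28 and 6.13 against 11.9, 13.9 and 10.9 CPM. Zbtb16 fell by 1.00 in log2 units (SE 0.15, edgeR BH-adjusted p 0.0334) and was past the threshold in 10 of 16 fits.

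Of 11 tested LXR targets, Apoe was the 1 called, and 5 were higher and 2 lower at an unadjusted p below 0.05, with a median log2 fold change of 0.10. Named after their values were seen, the cholesterol exporters Abca1 (log2 fold change 1.03, SE 0.33) and Abcg1 (0.68, SE 0.16) and the lipoprotein receptor ligase Mylip (0.63, SE 0.17) were among the higher, with edgeR BH-adjusted p of 0.123, 0.0791 and 0.0928. The 2 lower were Fasn (-0.33, SE 0.099) and Lpcat3 (-0.31, SE 0.11), with edgeR BH-adjusted p of 0.108 and 0.141. Over the 11 targets, 6 fold changes were positive and 5 negative. Of 13 tested glucocorticoid-induced genes Zbtb16 was the 1 called, and 11 had a positive fold change, with a median of 0.23. At an unadjusted p below 0.05, 0 of the 13 were higher and 1, Zbtb16, was lower. Their summed level was 1072 CPM in Asxl2-/- replicate 3, 707 and 558 in Asxl2-/- replicates 1 and 2, and 480 to 557 in control libraries. None of 14 tested PPAR targets was called, with 3 higher and 2 lower at an unadjusted p below 0.05. The fatty acid transporter Cd36 had a log2 fold change of -1.05 (SE 0.35), at an edgeR BH-adjusted p of 0.126.

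Genes of retinoid synthesis, transport and breakdown were mostly low. Of 16, only 7 were tested, and Stra6 and Lrat, for uptake and storage of retinol, had 0 counts in every library. Rdh11, a retinal reductase, had a log2 fold change of -0.25 (SE 0.11, edgeR BH-adjusted p 0.184). None of the 7 was called by edgeR, and 1 was at an unadjusted p below 0.05.

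Coactivators and corepressors all passed the filter on low counts, and none of 23 was called, with 2 higher and 4 lower at an unadjusted p below 0.05 and a median log2 fold change of 0.08. The smallest p-values belonged to Gps2, a corepressor subunit, at -0.49 (SE 0.11, edgeR BH-adjusted p 0.0696), and to the coactivator Pprc1 at -0.40 (SE 0.11, edgeR BH-adjusted p 0.104). None of 12 chaperones of steroid receptors was called. Of these, 11 had a negative fold change, with a median of -0.28, and 7 were lower at an unadjusted p below 0.05, beside 12.6% of all genes tested. Their summed level was 7917 to 10998 CPM in Asxl2-/- against 11044 to 13710 in control libraries. Cdc37, an HSP90 cochaperone, was at -0.39 (SE 0.095, edgeR BH-adjusted p 0.0779) and the heat-shock cognate Hspa8 at -0.32 (SE 0.11, edgeR BH-adjusted p 0.135). Of 16 clock genes none was called, with 3 higher and 0 lower at an unadjusted p below 0.05 and a median log2 fold change of 0.26. Arntl, the partner of Clock, was at 0.50 (SE 0.13, edgeR BH-adjusted p 0.0921) and the repressor Cry1 at 0.38 (SE 0.10, edgeR BH-adjusted p 0.0963).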

How the data were processed

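RNA from sorted LSK cells was sequenced from poly(A)-selected, unstranded libraries. The authors deposited raw counts per RefSeq transcript (33068 lines, 3 libraries) or per exon (317548 lines, 3 libraries), and replicates were not pooled. Submitters' processing notes name STAR, featureCounts, DESeq2 and the mm10 build, without versions, and the study's methods name Cuffdiff, which needs reads and was not used here. Each of the 24063 symbols was represented by its longest transcript, and exon counts were summed over it. Counts were tested by quasi-likelihood (edgeR 4.0.16, R 4.3.3) with filterByExpr, TMM scaling and terms for group and file kind, leaving 3 residual degrees of freedom. Two-sided p-values were adjusted by the Benjamini-Hochberg method over all genes tested, with a threshold of 0.05. Standard errors (SE) follow from each fold change and its F value. CPM uses the TMM-scaled library size, and removing the file-kind effect from the same 6 libraries makes the SDs of log2 values too small. The procedure was tested on simulated data.

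Libraries were grouped by their labels. No pair agreed within sampling noise, with chi-square values per degree of freedom of 25.2 to 226. The receptors and gene lists were chosen with earlier results of these data known. Values are given in full for receptors past the threshold, the 10 highest in control cells, the 10 with the smallest p and their paralogs, and for up to 4 called genes, or else the 2 with the smallest p, in each list. Alternatives were DESeq2 1.42.0, other scalings and filters, no file-kind covariate, a replicate block, the transcript with the highest mean count, each file kind alone and leaving out each library. Leaving out exons shared with other genes was chosen after seeing the data. The marker genes Trbc1, Ly6g and Adgre1 were not analysed here. Some genes that this rule would name are not reported here.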

Additional observations from a re-analysis of the deposited data

How the results depend on the processing

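The 2 receptors called became 4 with DESeq2 (Rxra, Rarg, Thrb and Esrra) and 0 to 3 when 1 library was left out. The lowest count came without Asxl2-/- replicate 1, Asxl2-/- replicate 3 or control replicate 3, and the highest without Asxl2-/- replicate 2. With the file-kind covariate, that last fit compares the groups in gene-count files, where control replicate 2 is the only control. Rarg was past the threshold in 13 and Rxra in 12 of 16 fits, and neither changed sign. Over all genes the 331 calls became 2329 with DESeq2 (1181 raised, 1148 lowered), 161 with library size alone (142 raised, 19 lowered) and 9 to 1312 with 1 library left out, so the share raised moved with the tool. The cause of these differences was not tested. The 2 calls in the pathway lists became 19 with DESeq2, 1 with median-ratio scaling, 0 with library size alone, 1 without the file-kind covariate and 0 to 15 with 1 library left out.

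Same-numbered libraries gave r = 0.309, 0.0406 and 0.00664 over genes in their deviations from group means. Each of these pairs joins a gene-count with an exon-count file, so the values cannot decide whether the numbers mark pairs. No label stated a pairing, and the replicate numbers were not taken as pairs. With the file-kind effect removed, the same-numbered pairs gave 0.633, 1 and 0.379. That removal fixes the value for replicates 2, each the only library of its kind in its group. It also puts a shared part into replicates 1 and 3 of both groups, whichever way they are matched. Asxl2-/- replicate 1 with control replicate 3 gave -0.00539, and Asxl2-/- replicate 3 with control replicate 1 gave 0.191. These lie below the same-numbered values, and whether the numbers mark pairs was not settled. A replicate block with the file kind left 1 residual degree of freedom and called 11 receptors (10 raised, 1 lowered), 54 list genes and 5179 genes in all (2767 raised, 2412 lowered), and a block without the file kind called 0 list genes. Asxl2-/- replicate 2 correlated best with control replicate 3 (r = 0.211), and both are exon-count files.

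Fold changes near 0 turned sign. Thra was at -0.0195 with DESeq2, -0.0186 with median-ratio scaling, -0.0799 without the file-kind covariate, -0.0704 with the block alone, and -0.0704 to 0.134 with 1 library left out. Ppard was at -0.0397 with DESeq2, -0.0399 with median-ratio scaling, and -0.0652 to 0.0374 with 1 library left out. Nr1d1 was at 0.0894 with library size alone, 0.00408 with at least 10 counts in every library, 0.0745 without the covariate, 0.0727 with the block alone, and -0.0655 to 0.0572 with 1 library left out. Rxrb was at 0.0387 with library size alone. Nr3c1 was at 0.0775 with library size alone, 0.176 without the covariate, 0.148 with the block alone, and -0.177 to 0.143 with 1 library left out. Nr4a2 was at -0.00545 with median-ratio scaling and -0.855 to 0.955 with 1 library left out, Nr4a1 at -0.83 to 1.94, and Nr2c1 at -0.0308 to 0.238. Of 24 named genes, 16 kept their direction in every alternative fit they entered, which was all 15 except for Pparg, whose counts were too low for the filter of 10 in every library. That count leaves out the values from each file kind alone, where Pparg was at -0.25 from gene counts. No scaling moved the median of all genes by more than 0.0985. Receptors expressed in controls were 26, 29 at a minimum of 3 counts and 23 at 1 CPM.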
